A study of Mus musculus with 94 samples.

Results

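Tau, the protein of neurofibrillary tangles, was followed here together with other proteins that bind microtubules and with the main kinases that phosphorylate tau, as their RNA was read in mouse brain. The genes were Mapt (tau), Map1a, Map1b, Map2, Map4, Map7, Gsk3a, Gsk3b, Cdk5 and Cdk5r1, and their members were the 35 probe sets whose platform annotation names 1 of these 10 genes alone, out of 45101 probe sets on the array. The genes were chosen from values of these arrays. Lists that the study drew from the MAM response of Mgmt-/- brain and from the genotype difference in that response name Mapt, Map1b and Gsk3b, so values of those contrasts are given as descriptions, without a test. The vehicle arrays also enter those contrasts. The vehicle genotype p values of Mapt, Map1b and Gsk3b are therefore not independent of that choice. The study asked how MAM, a genotoxin of cycad plants that methylates DNA, acts on the brain when the repair protein Mgmt is lacking. Male C57BL6 mice of 11 weeks, wt or Mgmt-/- on that background, were given vehicle or MAM once and brain RNA was taken 6, 24, 48 or 168 hr later, which makes 16 groups of genotype, agent and time. All 16 groups share strain, sex and age, and the loss of Mgmt was present in every cell type of the animal. Each group holds 6 arrays, except wt vehicle at 48 hr, wt MAM at 168 hr and Mgmt-/- MAM at 168 hr, which hold 5 each.

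Microtubules are the hollow tracks along which neurons move cargo, and microtubule-associated proteins bind their surface and stabilise them. Tau is most abundant in axons and Map2 in dendrites, and both bind microtubules less tightly once they are phosphorylated. Gsk3 and Cdk5 are the kinases best known for phosphorylating tau, and Cdk5 works only when it is bound to an activator such as p35, the product of Cdk5r1. The arrays measured RNA, so none of the values below speaks of phosphorylation.

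Of the 94 arrays, 1 Mgmt-/- MAM 168 hr array was left out, because the median of its 12 liver genes was 13.64 against at most 7.13 on any of the other 93 arrays, and that of its 9 neuron genes was 4.73 against as much as 11.99. On the 93 arrays the summed level of the neuron markers ranged from 14.89 to 15.28 (log2), and its group means ranged only from 15.05 to 15.13. Markers of oligodendrocytes (14.47 to 15.01), astrocytes (13.35 to 13.80), microglia (10.67 to 11.80) and endothelium (9.23 to 10.32) were also present, as whole brain holds all of these cells. In such bulk RNA, fewer cells of a type and less RNA per cell cannot be told apart. The probe set of the targeted gene, Mgmt 1421309_at, read between 5.49 and 6.21 in 46 wt arrays and between 5.09 and 6.45 in 47 Mgmt-/- arrays. Its place relative to the disrupted part of the gene is unknown here, so these values do not check the genotype labels. Animal numbers fall into a pair of series, called number set 1 and number set 2 here and taken as the laboratories of the study, with 2 or 3 animals of every group in each. An index of RNA integrity, the 3' minus 5' value of the Gapdh and Actb control probe sets, differed by group. Its means were 0.31 to 0.37 in wt vehicle, 0.33 to 0.44 in wt MAM, 0.42 to 0.55 in Mgmt-/- vehicle and 0.52 to 0.63 in Mgmt-/- MAM, and values adjusted for it are given beside the results below. At 6 hr the vehicle arrays did not overlap on this index, with 0.269 to 0.336 in wt and 0.417 to 0.46 in Mgmt-/-. The oligodendrocyte markers also moved with genotype in vehicle brain. Their summed group means were 14.74 to 14.81 in wt and 14.62 to 14.73 in Mgmt-/-. Cnp was called lower at 6 and 24 hr and Cldn11 and Mog at 48 hr. No oligodendrocyte marker was called at 168 hr, and none was called higher at any time. Yet the markers did not all go down. Their differences ran from -0.82 to -0.03 at 6 hr and from -0.52 to 0.35 at 24 hr (medians -0.22 and -0.13). They ran from -0.52 to 0.25 at 48 hr and from -0.34 to 0.07 at 168 hr (medians -0.13 and -0.12). The part of these markers in the results below was not tested.

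All 10 genes were read in brain. The probe set with the highest mean, called the lead probe set, averaged between 10.60 and 11.01 over the 16 groups for Mapt (1424719_a_at, log2 RMA value, with the median SD within a group at 0.14). Its highest group was Mgmt-/- MAM at 24 hr and its lowest wt vehicle at 48 hr. Map1b (1450397_at) had the widest span among the lead probe sets, from 11.36 in Mgmt-/- vehicle at 48 hr to 10.16 in Mgmt-/- MAM at 48 hr, with a median SD of 0.33. Cdk5 (1450674_at) had the narrowest, from 9.97 in Mgmt-/- vehicle at 6 hr to 9.67 in Mgmt-/- MAM at 24 hr, with a median SD of 0.11. When the 16 group means of a gene were put in order, all 15 pairs of neighbours lay closer together than 1 median SD for 8 of the genes, and 14 of 15 for Map2 and Map4. The exception for Map2 (1434194_at) lay between wt and Mgmt-/-, since the lowest of the 8 wt group means was 11.68 and the highest of the 8 Mgmt-/- group means 11.57. That for Map4 (1437855_at) lay between wt MAM at 24 hr (10.04) and wt vehicle at 168 hr (9.87).

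Probe sets of 1 gene did not always move together. Over the values of the 93 arrays, group differences included, Pearson's r between the probe sets of Mapt ranged from 0.05 to 0.82 over 6 pairs, and the Map1a pair gave 0.76. Map2 1421327_at and 1421328_at gave 0.97, and Cdk5r1 1421123_at and 1421124_at gave 0.92. In contrast, Cdk5r1 1421123_at and 1433451_at gave -0.48, and the 3 pairs of Map1b gave -0.28 to 0.18. These are descriptions over arrays that share hybridisation and normalization. Every probe set is therefore reported on its own, and no level is set against that of another probe set.

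Tau RNA read slightly higher in Mgmt-/- than in wt vehicle brain with each of its 4 probe sets. At 24 hr, Mapt 1455028_at ranged from 9.31 to 9.54 in wt vehicle (median 9.41) and from 9.72 to 9.91 in Mgmt-/- vehicle (median 9.80), so that the genotypes did not overlap. The difference was 0.39 on the log2 scale (SE 0.0968, limma adjusted p = 0.014). Mapt 1417885_at was likewise apart at 24 hr, from 8.09 to 8.32 (median 8.20) in wt against 8.53 to 8.76 (median 8.60), a difference of 0.41 (SE 0.11, limma adjusted p = 0.023). With the RNA index as a covariate neither was called at this time (limma adjusted p = 0.055 and 0.08). The study's lists name Mapt and drew on these vehicle arrays, so these p values are not independent of that choice. The call of 1417885_at was lost in 5 of 24 fits that left out 1 array (3 wt MAM arrays and 1 vehicle array of each genotype), in 3 of them because the number-set filter set it aside, while the difference stayed between 0.38 and 0.44, and that of 1455028_at in 2 (1 vehicle array of each genotype). A probe set is said to be called when its adjusted p is under 0.05 and its fold above 1.3, which is 0.379 on the log2 scale. These are the 2 Mapt calls at 24 hr, among 5 of the 17 member probe sets kept at that time, where 4.08% of all kept probe sets were called. The others had been set aside because effects differed between the number sets, by the study's filter. At 48 hr, Mapt 1424718_at was set aside in this way, and was picked here after its values were seen. Its wt vehicle values were 9.80, 9.80, 9.81, 9.85 and 9.91, and those of Mgmt-/- vehicle ran from 9.98 to 10.46 (median 10.31), again without overlap (0.45, limma adjusted p = 0.0017 without the filter).

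A fit of all 47 vehicle arrays, chosen after seeing the data, gave the genotype difference averaged over the 4 times without the filter. Here the 4 Mapt probe sets were higher in Mgmt-/- by 0.25 to 0.36, or 1.19 to 1.28-fold, each with a limma adjusted p of at most 4.9e-06 and each below the 1.3-fold threshold, so that none was called. The lead probe set differed by 0.25 (SE 0.0416), with 0.31 in number set 1 and 0.19 in number set 2. All 4 were higher in both number sets. With the RNA index as a covariate the 4 differences were 0.51, 0.37, 0.22 and 0.46, and 1417885_at and 1455028_at were then called. By adjusted p alone, 25 of the 35 member probe sets differed in this fit, 16 higher and 9 lower, where 32% of all probe sets did (16.9% higher and 15.2% lower), so that small genotype differences were common on these arrays.

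**Figure D1:**
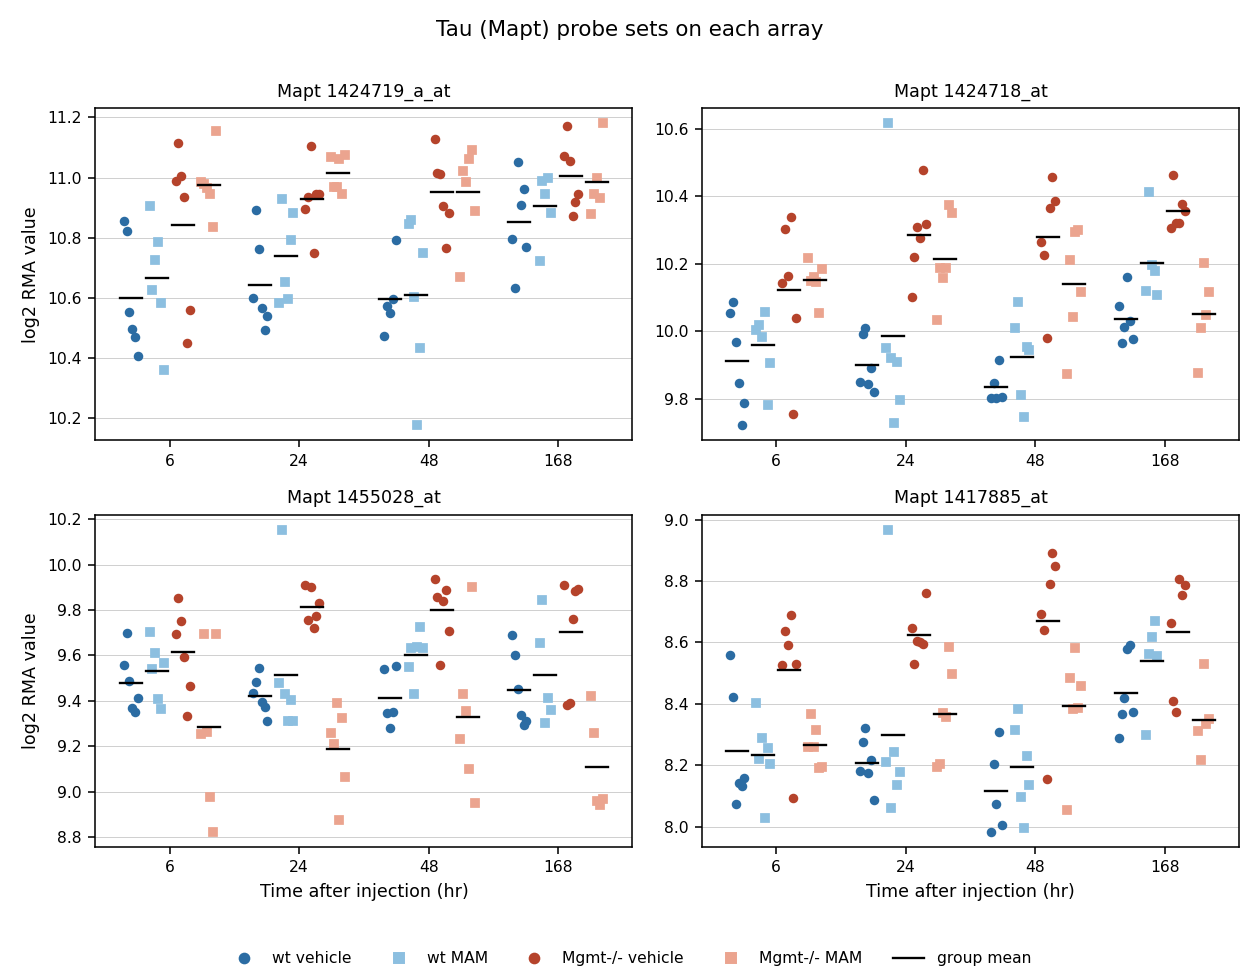
Log2 RMA values of the 4 Mapt probe sets (panels) on each of 93 arrays, by time after injection in hr (horizontal axis) and by group (colour and shape), with a black bar at each group mean; each panel has its own vertical scale. Mgmt-/- vehicle arrays sit above wt vehicle arrays with little overlap at 24 hr, and with 1455028_at the Mgmt-/- MAM arrays at 24 hr (8.87 to 9.39) lie below all Mgmt-/- vehicle arrays (9.72 to 9.91).

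Map1a, a large protein that stabilises microtubules in mature neurons, was also higher in Mgmt-/- vehicle brain. At 24 hr, Map1a 1455779_at ran from 7.42 to 7.93 (median 7.55) in wt and from 7.80 to 8.33 (median 8.07) in Mgmt-/-, a difference of 0.48 (SE 0.0971, limma adjusted p = 0.0028). The ranges overlapped, and the median of Mgmt-/- lay above the highest wt array. At 48 hr the lead probe set 1460566_at read 9.88, 9.92, 9.96, 9.97 and 10.15 in wt and 10.23 to 10.67 (median 10.36) in Mgmt-/-, with no overlap and a difference of 0.42 (SE 0.096, limma adjusted p = 0.011). Map1a 1455779_at differed by 0.39 at that time (limma adjusted p = 0.016). Once the RNA index was a covariate, the limma adjusted p was 0.17 for the 24 hr difference, and 0.07 and 0.049 for those of 1460566_at and 1455779_at at 48 hr. The 48 hr differences are among the 4 member probe sets called at 48 hr of 20 kept, where 2.98% of all kept probe sets were called. Averaged over the 4 times the probe sets were higher by 0.33 and 0.35 (1.25 and 1.27-fold, below the fold threshold), in both number sets. The 48 hr call of 1455779_at was lost in 3 of 23 fits that left out 1 array (2 wt vehicle arrays and 1 Mgmt-/- vehicle array), and that of 1460566_at in 3 of 23 as well (1 Mgmt-/- vehicle and 2 Mgmt-/- MAM arrays), of which the filter set it aside in 2 and the fold missed the threshold in the other.

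Map1b, the relative of Map1a that marks growing axons, gave opposite readings by probe set. Map1b 1421850_at was lower in Mgmt-/- vehicle brain. At 6 hr its 6 wt arrays lay between 6.05 and 6.50 (median 6.44) and its 6 Mgmt-/- arrays between 4.86 and 5.16 (median 4.98), a difference of -1.38 (SE 0.121, limma adjusted p = 9.2e-08 without the number-set filter, which had set it aside at all 4 times, so that it was picked after its values were seen). At 24 hr the ranges were 5.73 to 6.58 and 4.84 to 5.04, again apart, with a difference of -1.05. At 48 hr the wt arrays read 4.79, 5.62, 5.78, 5.87 and 6.63, and the lowest of them lay below the Mgmt-/- range of 4.86 to 5.30. Averaged over the 4 times, this probe set was lower in Mgmt-/- (-0.90, SE 0.0825, limma adjusted p = 1.3e-11), with -1.19 in number set 1, -0.63 in number set 2 and -0.65 with the RNA index as a covariate. Its highest Mgmt-/- vehicle value, 5.30, was below the lowest median of all probe sets on an array, 5.31. No detection calls were used here, so whether Mgmt-/- brain gave a signal above background is unknown, and no fold is given.

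The lead probe set, Map1b 1450397_at, went the other way. At 48 hr it read 9.65, 10.31, 10.51, 10.94 and 11.24 in wt vehicle and 11.11 to 11.59 (median 11.37) in Mgmt-/- vehicle, with 1 wt array inside the Mgmt-/- range. The difference was 0.85 (SE 0.235, limma adjusted p = 0.036, and 0.074 with the RNA index) and was still called in 16 of 23 fits that left out 1 array. The 7 arrays on which it rested were 3 wt vehicle and 4 Mgmt-/- vehicle arrays. The study's lists name Map1b and drew on these vehicle arrays, so the p value is not independent of that choice. Averaged over the 4 times the difference was 0.38 (limma adjusted p = 0.0031), just short of the 1.3-fold threshold, and 0.84 with the RNA index. The third probe set, 1421851_at, differed by 0.15 (limma adjusted p = 0.19), with 0.42 in number set 1 and -0.10 in number set 2. The direction for Map1b as a gene therefore depended on the probe set.

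Map2, the dendritic protein, gave the largest genotype difference among the members when the 4 times were averaged. Map2 1421327_at, which the filter had set aside and which was picked after its values were seen, ran at 6 hr from 8.26 to 8.96 (median 8.68) in wt vehicle and from 6.81 to 7.95 (median 7.34) in Mgmt-/- vehicle. At 24 hr the ranges were 8.09 to 9.01 and 6.64 to 7.46. The genotypes were thus apart at both times, and they overlapped at 48 and 168 hr. Averaged over the 4 times this probe set was 2.28-fold lower in Mgmt-/- (-1.19, SE 0.135, limma adjusted p = 2.5e-09), with -1.36 and -1.02 in number sets 1 and 2. Map2 1421328_at was 2.05-fold lower (-1.03, limma adjusted p = 1.5e-09). With the RNA index as a covariate the 2 differences were -0.61 and -0.60 and were still called. The lead probe set, Map2 1434194_at, was lower by a much smaller amount, -0.22 (limma adjusted p = 3.9e-07, 1.16-fold), yet its 6 hr arrays did not overlap, with 11.70 to 11.87 in wt against 11.41 to 11.59. The fourth probe set, 1440699_at, was higher by 0.21 (limma adjusted p = 0.049), with opposite signs in the number sets (-0.12 and 0.52).

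Map4, a microtubule stabiliser of many cell types, had a single probe set apart from the rest. Map4 1437855_at, its lead probe set, read 9.92, 10.05, 10.13, 10.13 and 10.23 in wt vehicle at 48 hr and 9.54 to 10.14 (median 9.64) in Mgmt-/- vehicle, a difference of -0.38 (SE 0.0931, limma adjusted p = 0.017). The highest Mgmt-/- array lay inside the wt range. This call was lost in 7 of 23 fits without 1 array (2 wt vehicle and 5 Mgmt-/- vehicle arrays), in 2 of them through the filter. At 6 hr the same probe set ran from 9.81 to 10.33 in wt and from 9.51 to 9.72 in Mgmt-/-, without overlap (-0.49, limma adjusted p = 0.0056 without the filter). At 168 hr the difference was -0.09. Averaged over the 4 times the difference of 1437855_at was -0.37 (limma adjusted p = 3.9e-09, 1.29-fold, not called). With the RNA index it was -0.41 and called. The other 4 probe sets of Map4 were higher by 0.07 to 0.31 when averaged over the 4 times, and none was called. Among them, 1443702_at and 1439467_at had low means over the 93 arrays, 4.70 and 4.06. Map7, which recruits the motor kinesin to microtubules, differed little, with -0.10 to 0.17 over its 3 probe sets. Only its lead probe set, 1421836_at, had an adjusted p under 0.05 among them (0.17, SE 0.0327, limma adjusted p = 6.4e-05, 1.13-fold), and none was called.

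**Figure D2:**
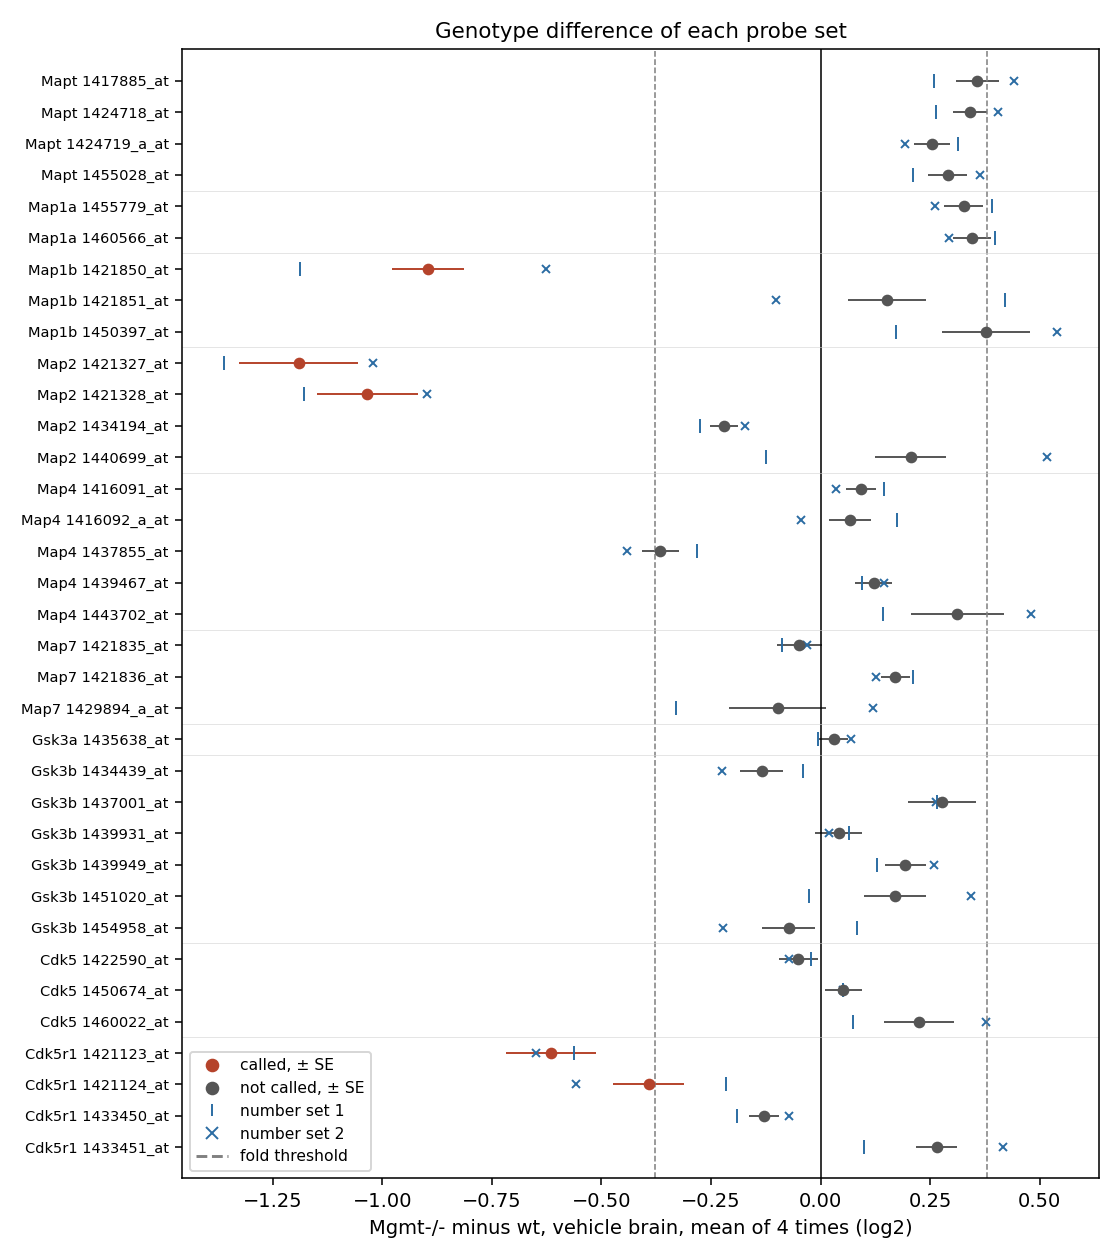
Genotype difference of all 35 member probe sets in vehicle brain (horizontal axis, log2, Mgmt-/- minus wt, mean of 4 times ± SE, 24 against 23 arrays); red points were called, grey points were not, ticks and crosses give number set 1 and number set 2, and dashed lines mark the 1.3-fold threshold. The 5 called probe sets, of Map1b, Map2 and Cdk5r1, all lie to the left, while the 4 Mapt and 2 Map1a probe sets lie to the right inside the threshold.

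None of the 10 probe sets of the tau kinases Gsk3a, Gsk3b and Cdk5 was called for genotype, though 4 had an adjusted p under 0.05. Gsk3a, with 1 probe set (1435638_at), differed by 0.03 (SE 0.0331, limma adjusted p = 0.51) over the 4 times. At 24 hr it ran from 9.24 to 9.55 in wt vehicle and from 9.22 to 9.43 in Mgmt-/- vehicle. The 6 probe sets of Gsk3b, the kinase that is held in check by Wnt and insulin signalling, differed by -0.13 to 0.28, and none was called. The lead probe set, Gsk3b 1454958_at, differed by -0.07 (SE 0.0606, limma adjusted p = 0.37), with 0.08 in number set 1 and -0.22 in number set 2. Gsk3b 1437001_at (0.28, limma adjusted p = 0.0055) and 1439949_at (0.19, limma adjusted p = 0.0012) were higher and 1434439_at lower (-0.13, limma adjusted p = 0.032), all by less than the fold threshold. Gsk3b 1451020_at differed by 0.17 (limma adjusted p = 0.062) and by 0.59, then called, with the RNA index as a covariate. The 3 probe sets of Cdk5 differed by -0.05 to 0.23, the last of these for 1460022_at (limma adjusted p = 0.026). Its lead probe set, 1450674_at, differed by 0.05 (SE 0.0418, limma adjusted p = 0.35) and by 0.05 in each number set.

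Cdk5r1, the activator of Cdk5, again split by probe set. At 6 hr, Cdk5r1 1421123_at ran from 7.23 to 7.92 (median 7.43) in wt vehicle and from 6.20 to 7.10 (median 6.74) in Mgmt-/- vehicle, a difference of -0.78 (SE 0.13, limma adjusted p = 4e-04) without overlap. It was the 1 member probe set called at 6 hr of 14 kept, where 3.4% of all kept probe sets were called, and it stayed called when each of the 24 arrays was left out in turn. At 24 hr the ranges were 7.17 to 7.55 and 6.06 to 6.95, with a difference of -0.92 (limma adjusted p = 0.0012, and 0.065 with the RNA index). It stayed between -1.01 and -0.86 in fits that left out 1 array, of which 3 set it aside by the number-set filter. Cdk5r1 1421124_at differed by -0.65 at 24 hr (SE 0.191, limma adjusted p = 0.039, and 0.34 with the RNA index), a call kept in 13 of 24 such fits and set aside by the filter in 3. Averaged over the 4 times the pair was 1.53-fold and 1.31-fold lower in Mgmt-/- (-0.61, limma adjusted p = 7.4e-06, and -0.39, limma adjusted p = 0.00016). With the RNA index the values were -0.42 and -0.35, and neither was called (limma adjusted p = 0.1 and 0.088). The lead probe set, Cdk5r1 1433451_at, was higher instead, by 0.26 (limma adjusted p = 2.5e-05, 1.2-fold, not called), with 0.10 in number set 1 and 0.42 in number set 2.

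In all, 5 of 35 member probe sets were called for genotype over the 4 times, all lower in Mgmt-/-, where 4.12% of all probe sets were called and 3.27% were called lower. They belong to 3 genes. For 5 of the 10 genes, probe sets with opposite directions both had an adjusted p under 0.05. The direction was the same in both number sets for 28 of the 35. At 168 hr none of 19 kept member probe sets was called by limma, where 0.0812% of all kept probe sets were. An unadjusted limma p under 0.05 was found there for 9 of the 35, where 12.4% of all probe sets had one. The number sets differed at 168 hr for some probe sets, picked here after their values were seen. Map1b 1421850_at averaged 5.84 in wt and 4.92 in Mgmt-/- vehicle in number set 1, but 4.965 and 4.98 in number set 2. Map2 1421327_at averaged 8.88 and 6.55, but 7.08 and 7.25 in number set 2. Mapt 1417885_at was higher in Mgmt-/- in both, with 8.36 and 8.48, and 8.515 and 8.78. Without the number-set filter the counts at 6, 24, 48 and 168 hr were 6, 10, 10 and 0, where 4.22%, 5.79%, 3.53% and 0.392% of all probe sets were called. With the RNA index as a covariate in the fit over the 4 times 8 of 35 were called, where 2.75% were, and these went both ways. Mapt 1417885_at and 1455028_at, Map1b 1450397_at and Gsk3b 1451020_at were then called higher. Map1b 1421850_at, Map2 1421327_at and 1421328_at, and Map4 1437855_at were called lower. Summed neuron markers had group means of 15.05 to 15.08 in wt vehicle and 15.05 to 15.10 in Mgmt-/- vehicle. Of the single markers, Gad2 of inhibitory neurons and Slc1a2 of astrocytes were called lower in Mgmt-/- at 24 hr, and at 48 hr Rbfox3 of neurons and Itgam of microglia were called higher and Gja1 of astrocytes lower. The liver genes Hpx and Serpina1c were called lower at 24 hr. The part of these markers in these differences was not tested.

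**Figure D3:**
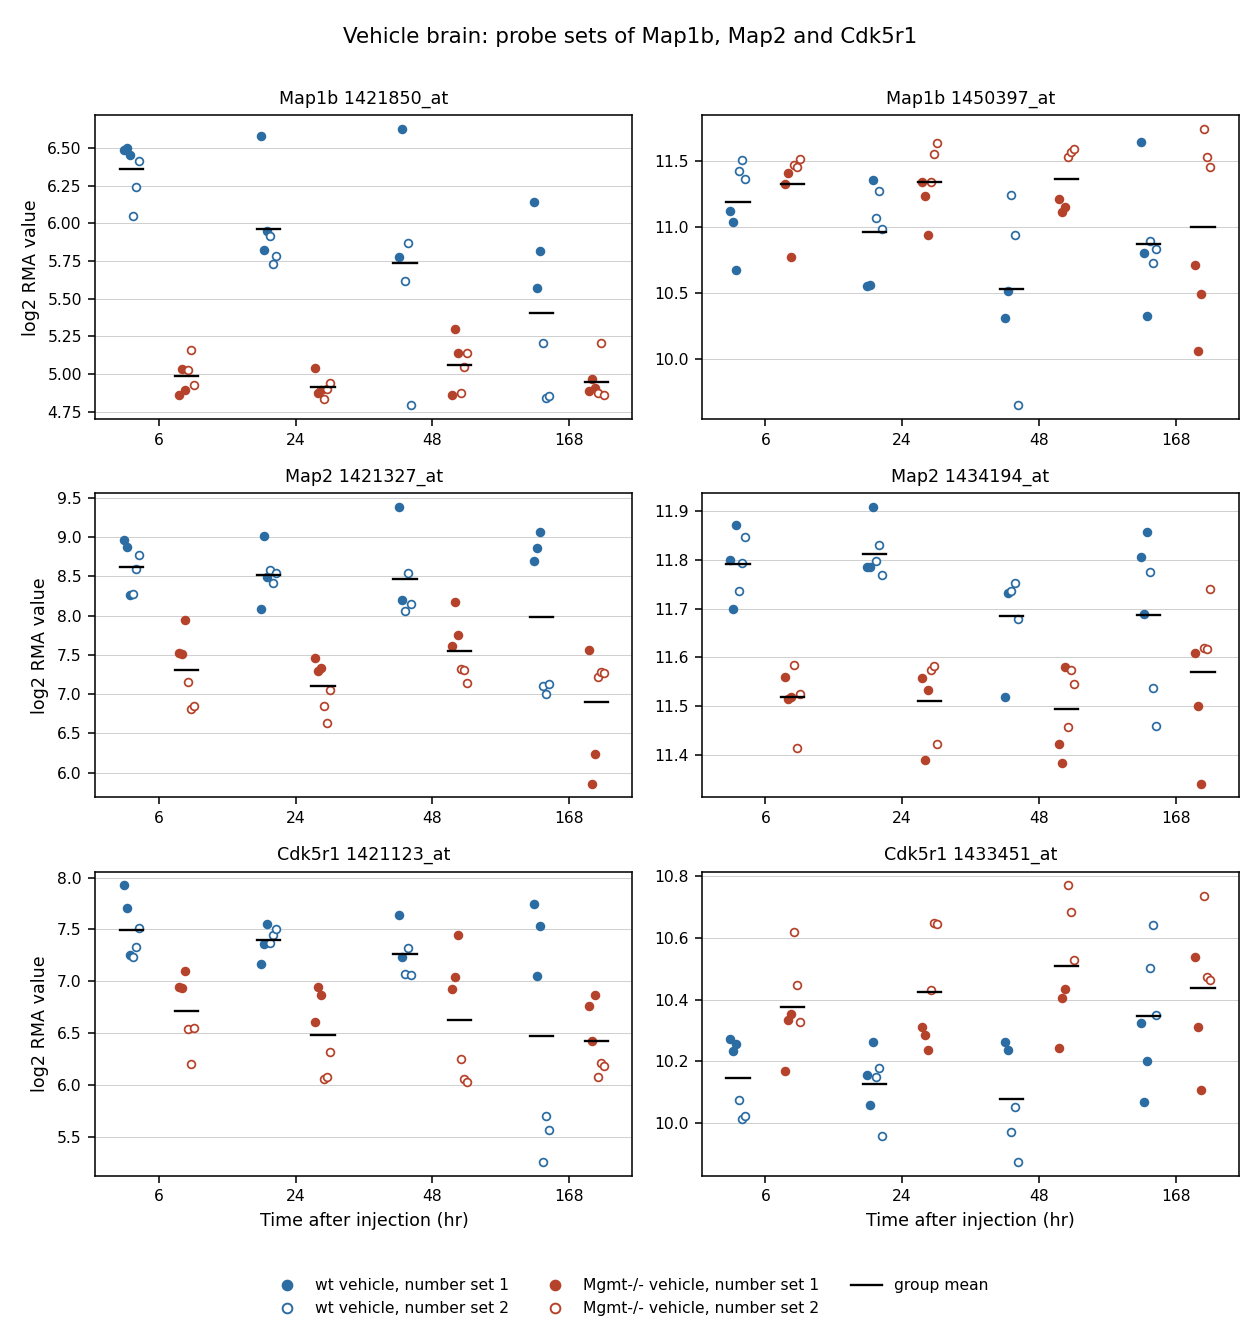
Log2 RMA values of paired probe sets of Map1b, Map2 and Cdk5r1 (rows) on the 47 vehicle arrays, by time after injection in hr; blue is wt, red is Mgmt-/-, filled symbols are number set 1, open symbols number set 2, and black bars are group means. In the left column Mgmt-/- lies below wt at 6 and 24 hr, in the right column it does so for Map2 alone, and the 3 open wt symbols at 168 hr lie low in the left column.

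Time after the injection was compared within the vehicle brain of each genotype. In wt vehicle brain, 2 of 35 were called by the moderated F test over the 4 times, where 0.106% of all probe sets were called. The unadjusted p of this test was under 0.05 for 14 of the 35 in wt. The share of all probe sets with such a p was not computed. Map1b 1421850_at went from 6.05 to 6.50 (median 6.44) at 6 hr to 4.84 to 6.14 (median 5.39) at 168 hr, a difference of -0.95 (SE 0.163; F test, limma adjusted p = 0.014). Cdk5r1 1421123_at went from 7.23 to 7.92 (median 7.43) to 5.26 to 7.74 (median 6.37), a difference of -1.02 (SE 0.203; F test, limma adjusted p = 0.028). The 168 hr arrays fell apart by number set. For Cdk5r1 1421123_at the set means went from 7.63 to 7.44 in number set 1 and from 7.36 to 5.51 in number set 2. For Map1b 1421850_at the differences were -0.64 and -1.27. Map2 1421327_at, not called, showed the same pattern with 0.18 in number set 1 and -1.46 in number set 2.

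These time calls rest on few arrays. That of Cdk5r1 1421123_at was lost without any 1 of the 6 wt vehicle arrays of number set 2 at 6 and 168 hr, and that of Map1b 1421850_at without 3 of these, 1 at 6 hr and 2 at 168 hr. The RNA index of the wt vehicle arrays at 168 hr averaged 0.34 in number set 1 and 0.41 in number set 2. With the index as a covariate the limma adjusted p was 0.046 for Map1b 1421850_at and 0.072 for Cdk5r1 1421123_at. The MAM arrays of wt at 168 hr split in the same way, with Cdk5r1 1421123_at at 5.68, 5.69 and 5.80 on 3 arrays and at 7.31 and 7.85 on the other two. In Mgmt-/- vehicle brain no member probe set was called by limma over time, where 0.0222% of all probe sets were, and 2 of 35 had an unadjusted p under 0.05.

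MAM changed none of the members past the threshold in wt brain. At 6, 24, 48 and 168 hr limma called 0 of 14, 17, 20 and 19 kept member probe sets, and it called 0% of all kept probe sets at each time. Unadjusted limma p values under 0.05 were found for 3, 4, 6 and 5 of the 35, where 3.09%, 5.76%, 15% and 3.86% of all probe sets had them. With array weights 1 member probe set was called, and in number set 2 alone 4 were. The share over all probe sets was not computed under these settings, so nothing is read from these counts. The smallest limma adjusted p among the members was 0.15, for Gsk3b 1451020_at at 48 hr. It read 8.35, 8.39, 8.58, 8.75 and 9.02 in wt vehicle and 8.74 to 9.39 (median 9.21) in wt MAM, a difference of 0.54. The arrays overlapped, with 3 of the 5 vehicle values below the lowest MAM value.

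Larger differences after MAM in wt changed sign between times. Map1b 1450397_at differed by -0.60 at 6 hr (SE 0.226, limma adjusted p = 0.95), by -0.64 at 24 hr and by 0.56 at 48 hr. Gsk3b 1437001_at differed by -0.60 at 6 hr and by 0.49 at 48 hr, and its 6 wt MAM arrays at 24 hr ran from 7.90 to 9.92. Mapt varied less, with differences of -0.01 to 0.19 over its 4 probe sets and the 4 times. Map1a 1455779_at was 0.31 above vehicle at 24 hr (limma adjusted p = 0.56). The median over the 35 probe sets was 0.02, 0.09, 0.05 and 0.09 at the 4 times.

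**Figure D4:**
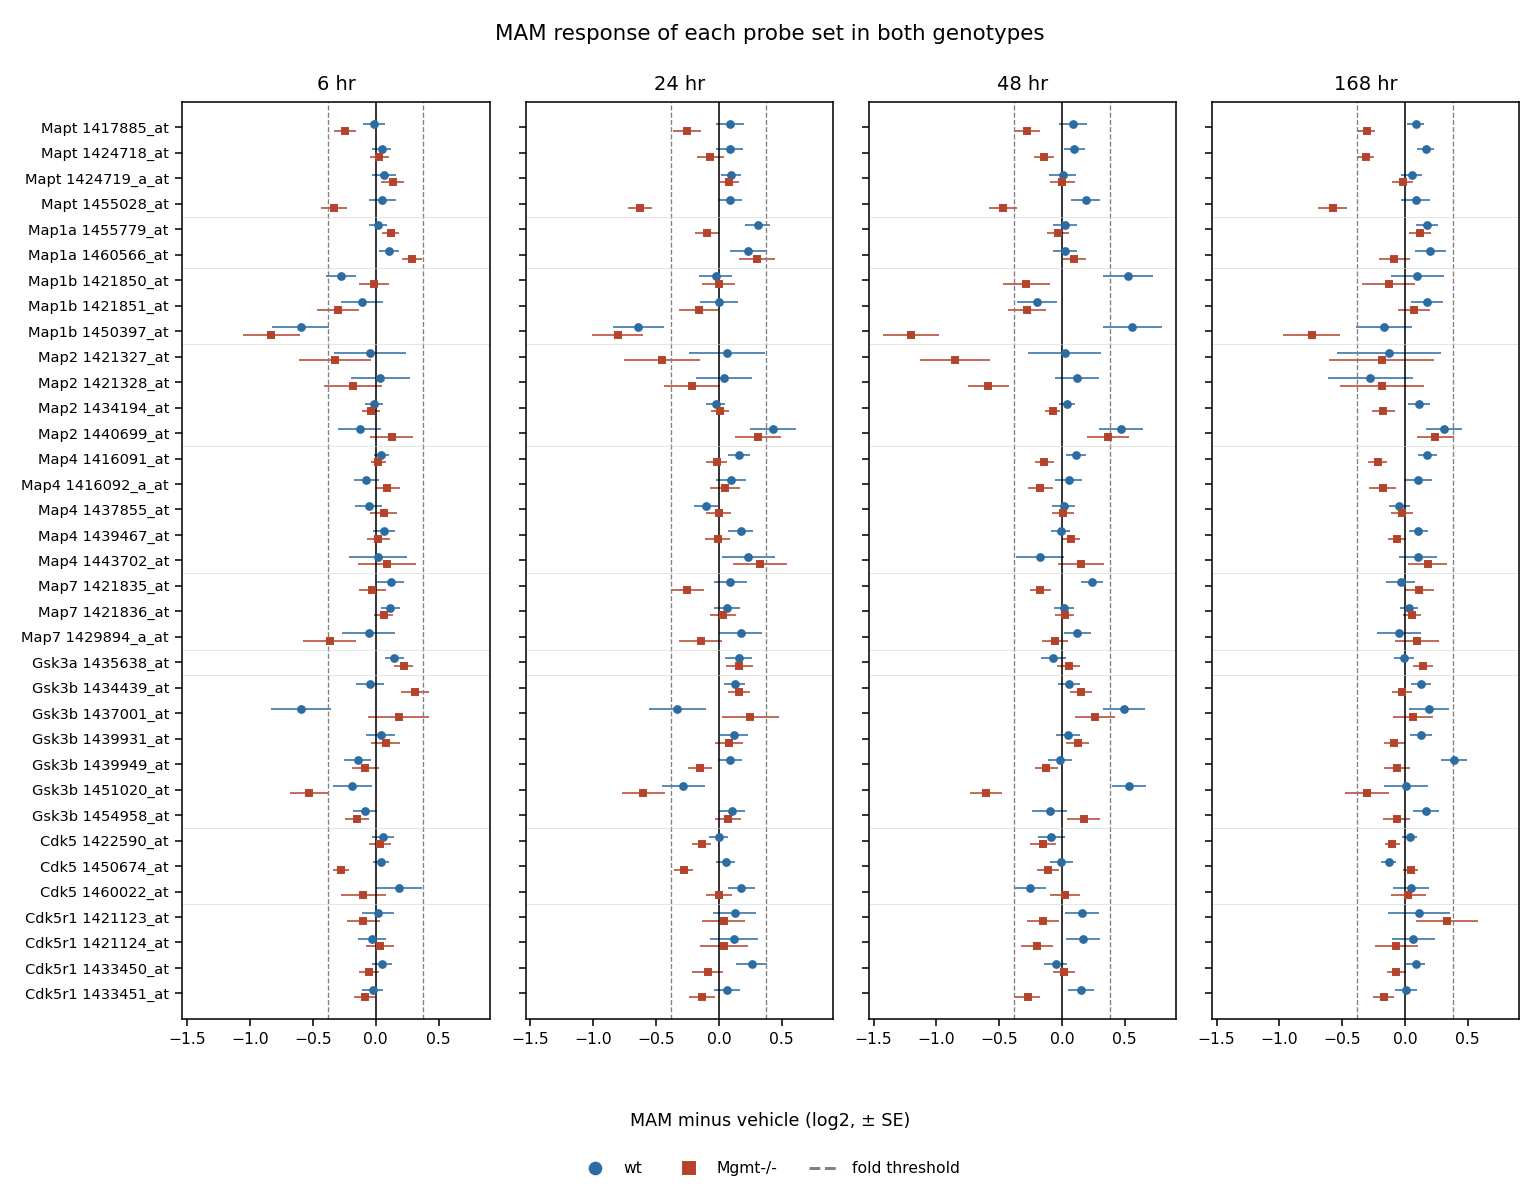
MAM minus vehicle (horizontal axis, log2 ± SE) for the 35 member probe sets at 6, 24, 48 and 168 hr (panels), in wt (blue circles) and Mgmt-/- (red squares), with dashed lines at the 1.3-fold threshold. Most points lie within the threshold in both genotypes; Mapt 1455028_at, Map1b 1450397_at and Gsk3b 1451020_at lie to the left in Mgmt-/- at every time.

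In Mgmt-/- brain the values after MAM are described only, for the reason given at the start. Markers moved in this contrast too. The 12 liver markers had a median difference of 0.61 at 6 hr and 0.47 at 24 hr, with Alb, Cyp2e1 and Serpina1c called higher at 6 hr and Serpina1c at 24 hr. Their summed level had group means of 13.63 to 13.71 in Mgmt-/- vehicle and 13.62 to 13.77 in Mgmt-/- MAM. The liver list shares Ttr with the choroid plexus list, whose sums were much the same (13.59 to 13.73 and 13.61 to 13.73). The sum therefore says little about the other liver genes. Of the neuron markers, Rbfox3 was called lower at 6 and 48 hr and Gad2 at 24 and 48 hr. The median over the lead probe sets of the 9 neuron markers was 0.02, 0.05, 0.01 and 0.00 at the 4 times. At 24 hr the lowest of these was -0.005, so the Gad2 call came from another probe set. Summed neuron markers had group means of 15.05 to 15.10 in Mgmt-/- vehicle and 15.08 to 15.12 in Mgmt-/- MAM. The part of all these markers in the values below was not tested. Mapt 1455028_at read lower after MAM at each time, while the lead probe set did not. Mapt 1455028_at ran at 24 hr from 9.72 to 9.91 in vehicle and from 8.87 to 9.39 (median 9.23) in MAM, without overlap and with a difference of -0.63 (-0.57 and -0.69 in number sets 1 and 2). It differed by -0.33, -0.47 and -0.58 at 6, 48 and 168 hr. At 168 hr the 5 MAM arrays read 8.94, 8.96, 8.97, 9.26 and 9.42, against 9.38 to 9.91 (median 9.82) in vehicle. Mapt 1424719_a_at differed by 0.13, 0.08, 0.00 and -0.02 at the 4 times, Mapt 1417885_at by -0.25 to -0.30, and Mapt 1424718_at by 0.03 to -0.31.

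Map1b 1450397_at had the largest such difference. At 48 hr it ran from 11.11 to 11.59 (median 11.37) in Mgmt-/- vehicle and from 9.54 to 10.78 (median 10.08) in Mgmt-/- MAM, without overlap and with a difference of -1.20 (-1.16 and -1.25 in the number sets). At 6, 24 and 168 hr the differences were -0.83, -0.81 and -0.74, and at 168 hr the number sets gave -0.10 and -1.31. Gsk3b 1451020_at ran at 48 hr from 8.65 to 9.35 (median 9.01) in vehicle and from 8.21 to 8.74 (median 8.33) in MAM, a difference of -0.60, with -0.53, -0.60 and -0.31 at the other times. The other 5 Gsk3b probe sets differed by -0.15 to 0.31 over the 4 times. Cdk5 1450674_at differed by -0.28 at 6 and 24 hr and by 0.05 at 168 hr. Map2 1421327_at, picked after its values were seen, split by number set. At 48 hr it ran in number set 1 from 7.61 to 8.17 in vehicle and from 5.62 to 6.23 in MAM. In number set 2 it ran from 7.14 to 7.32 and from 7.29 to 7.47. At 24 hr the sets went opposite ways, with 7.29 to 7.46 and 5.42 to 6.21 in number set 1. Number set 2 gave 6.64 to 7.05 in vehicle and 7.45 to 7.67 in MAM.

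For completeness, 1, 1, 2 and 0 member probe sets were past the thresholds in this contrast at the 4 times, where 1.68%, 0.615%, 0.45% and 0.462% of all kept probe sets were called. Since lists that the study drew from the MAM response name some of the members, nothing is read from these counts. None was past the thresholds with the RNA index as a covariate. Over the 93 arrays, within group and number set, r with the index was -0.55 for Gsk3b 1451020_at, -0.44 for Cdk5 1450674_at, -0.40 for Gsk3b 1437001_at, -0.38 for Map1b 1450397_at and -0.07 for Mapt 1455028_at. At 6 hr the index averaged 0.63 in Mgmt-/- MAM and 0.43 in Mgmt-/- vehicle. The arrays did not overlap on it, with 0.57 to 0.75 and 0.417 to 0.46, so adjusted values of this contrast at 6 hr are extrapolations. With the index as a covariate, the 6 hr difference of Map1b 1450397_at was 0.25 in place of -0.83, its 48 hr difference -1.12, that of Gsk3b 1451020_at at 48 hr -0.34, and that of Mapt 1455028_at at 24 hr -0.51.

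**Figure D5:**
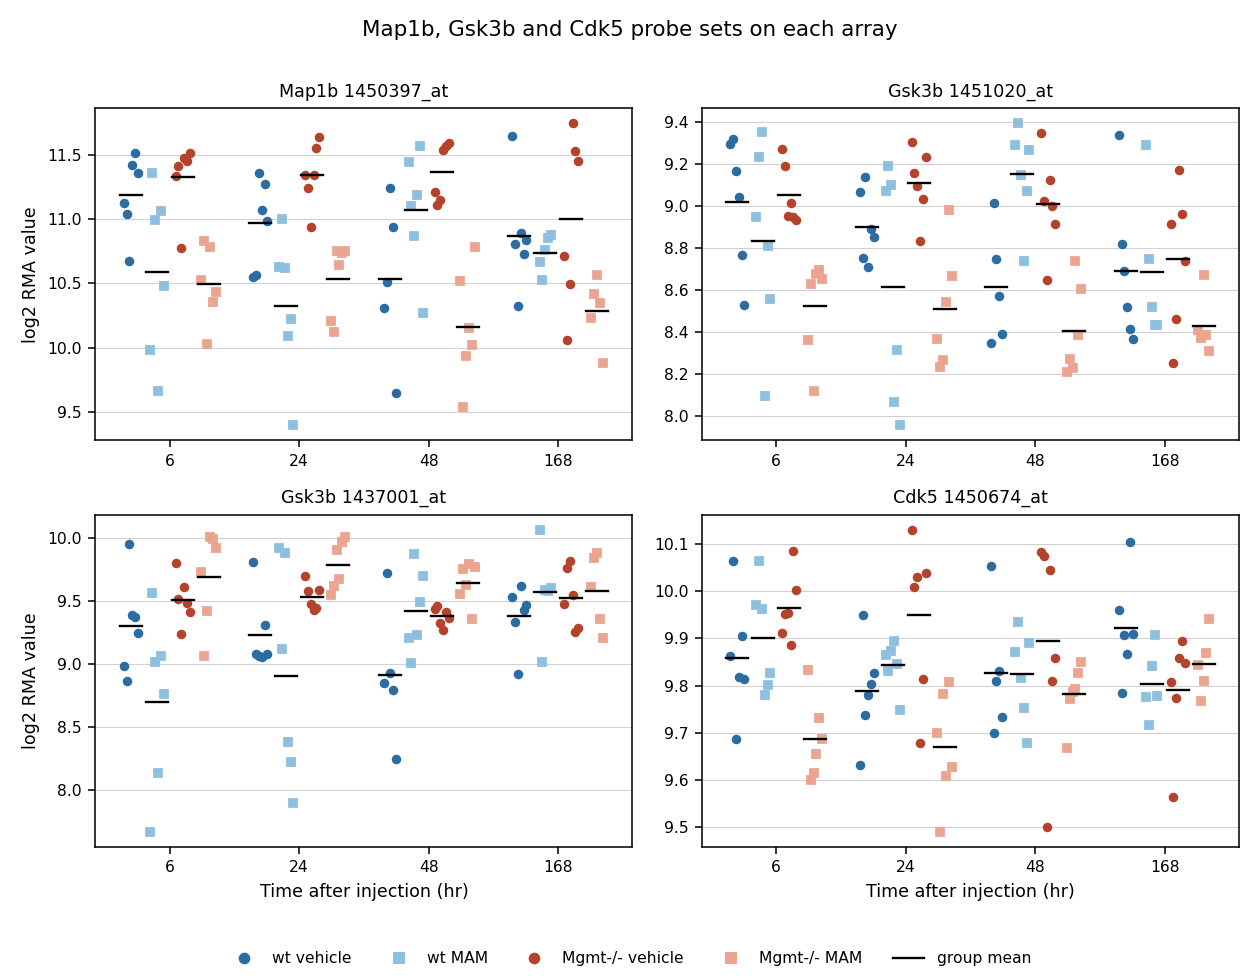
Log2 RMA values of Map1b 1450397_at, Gsk3b 1451020_at, Gsk3b 1437001_at and Cdk5 1450674_at on each of 93 arrays, by time after injection in hr and by group, with group means as black bars and a vertical scale of its own in each panel. At 48 hr the Map1b probe set lies at 9.54 to 10.78 in Mgmt-/- MAM and at 11.11 to 11.59 in Mgmt-/- vehicle. The arrays of wt MAM (10.27 to 11.56) and wt vehicle (9.65 to 11.24) overlap, with group means of 11.07 and 10.53.

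The difference between the genotypes in the MAM response, also a description here, is given first for 48 hr, where MAM and vehicle stood in opposite order in wt and Mgmt-/- for these probe sets. It was -1.77 for Map1b 1450397_at, -1.14 for Gsk3b 1451020_at and -0.66 for Mapt 1455028_at, the 3 member probe sets of 20 kept past the thresholds, where 0.886% of all kept probe sets were. Once the RNA index was a covariate, the values were -1.68, -0.88 and -0.70 and none was past the thresholds. In fits that left out 1 array, Map1b stayed past them in 23 of 23, Gsk3b in 17 (the number-set filter set it aside in the other 6) and Mapt in 5. At 6, 24 and 168 hr 0 members were past them, where 0.0677%, 0% and 0.0625% of all kept probe sets were. The study's lists, which name some of the members, bear on these counts, and nothing is read from them. For Mapt 1455028_at the value was as large at 24 and 168 hr (-0.72 and -0.66). Part of each 48 hr value comes from wt, in which MAM minus vehicle was 0.56, 0.54 and 0.19 for these probe sets. The wt and Mgmt-/- vehicle arrays also enter the genotype comparison above, so the values share those arrays.

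Of the wider machinery, the tubulins and other microtubule proteins (44 of 46 listed genes measured, 120 probe sets) had 5 genes called higher, 6 lower and 2 in both directions for genotype in vehicle brain over the 4 times, with a median difference of 0.04. Of its probe sets 16 were called, or 13.3%, where 4.76% of all probe sets with 1 gene were. Over the other tau kinases and the regulators of Cdk5 and Gsk3 (31 of 34 genes, 88 probe sets) 3 genes were higher, 6 lower and 1 both, with a median of 0.04 and 12 probe sets called (13.6%). The tau phosphatases (22 of 24 genes, 64 probe sets) had 0 higher and 2 lower, with a median of -0.02 and 2 probe sets called (3.12%). Over all genes the median was 0.02, and 1.55% of genes were called higher, 5.92% lower and 0.132% both. These shares carry no test, since probe sets of 1 gene share their transcripts and the lists were chosen with results known. Among the genes called was Dyrk1a, a kinase that primes tau for Gsk3 (1426226_at, -1.37, SE 0.0989, and -1.13 with the RNA index). Dclk1, a relative of doublecortin, was lower by 1451917_a_at (-0.92, SE 0.0998, and -0.58 with the index) and by 1423125_at (-0.47, and -0.29), and higher by 1446190_at (0.52, SE 0.0997, and 0.47). Clasp2, a protein of growing microtubule ends, was lower (1427328_a_at, -0.74, SE 0.0867, and -0.48 with the index). Pafah1b1, the dynein regulator Lis1, was lower by 1417086_at (-0.60, SE 0.0374, and -0.43 with the index) and higher by 1427703_at (0.49, SE 0.0598, and 0.51). Mark4, a tau kinase of the Mark family, was higher (1439051_a_at, 0.49, SE 0.0582), but by 0.27 with the index, under the fold threshold. The phosphatase subunits Ppp1cb (1426205_at, -0.53, and -0.50 with the index) and Ppp3cb of calcineurin (1428474_at, -0.41, and -0.27, under the threshold) were lower. After MAM in wt brain, limma called 0 genes of the 3 lists at any of the 4 times.

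Over the 16 group means, the genes whose pattern was most like that of the Mapt lead probe set were Prkcb (r = 0.979), Mapkbp1 (0.978) and Hcfc1 (0.975). For the Gsk3b lead probe set they were Mipol1 (0.866), Agbl3 (0.802) and Atl3 (0.795). The group means of these last 3 lay between 3.17 and 4.62, which is low on these arrays. These correlations describe 16 means of the same arrays and carry no test.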

How the data were processed

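Brain RNA of single mice was labelled and hybridised to Affymetrix whole-genome mouse arrays, 1 array per animal. The authors normalized all arrays together by RMA with default settings and deposited log2 values per probe set; tool versions are unknown, and labels and methods differ on the RNA extraction kit and hybridisation site. Genes were named from the platform annotation (34958 probe sets with 1 gene, 932 with several, 9211 with none). The members and gene lists were chosen with earlier results of these data known. Linear models with genotype, agent, their product and number set were fitted at each time with limma 3.58.1 (R 4.3.3), after the authors' approach. Probe sets with a number-set interaction p of at most 0.15 were set aside, which kept 39.3% to 78.8% of all, and p-values were adjusted by Benjamini-Hochberg over the rest. Vehicle arrays were also fitted over time, without that filter. A probe set was called at an adjusted p under 0.05 and a fold above 1.3. Every lead or called member probe set is described. The number of arrays limits the precision. Code was tested on simulated data. Alternatives were other normalization, weights, filters, covariates and samples.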

Additional observations from a re-analysis of the deposited data

Results flagged for a closer look

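Of 160 groups of lead probe set values looked at, 9 held an array far from the rest by Dixon's criterion, where chance gives about 1 in 20. The same wt MAM 24 hr array was high for both Map1a 1460566_at (11.35, next 10.28) and Gsk3a 1435638_at (10.16, next 9.466). Map1a 1460566_at also read 10.95 on a wt MAM array at 168 hr (next 10.26). Map1b 1450397_at read 10.78 on a Mgmt-/- vehicle array at 6 hr (next 11.33). Map4 1437855_at read 9.409 on a Mgmt-/- vehicle array at 24 hr (next 9.66) and 10.14 on one at 48 hr (next 9.742). Map7 1421836_at read 8.677 on a wt MAM array at 6 hr (next 9.117) and 8.923 on a Mgmt-/- vehicle array at 6 hr (next 9.109). Cdk5 1450674_at read 9.564 on a Mgmt-/- vehicle array at 168 hr (next 9.774).

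At 48 hr the response to MAM differed between the genotypes by -0.66 for Mapt 1455028_at, -1.77 for Map1b 1450397_at and -1.14 for Gsk3b 1451020_at. These values stand as descriptions, since lists that the study drew from the MAM response and its genotype difference name these genes.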

How the results depend on the processing

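Counts of called member probe sets over the 4 times were 0 for MAM in wt, 10 for genotype in vehicle, 4 for MAM in Mgmt-/- and 3 for the genotype difference in the MAM response, and 2 in wt and 0 in Mgmt-/- for time in vehicle. The genotype count was 26 without the number-set filter, 25 with all 93 arrays in one fit, 5 for the mean of 4 times, 4 in number set 1 alone, 34 in number set 2 alone and 6 with the RNA index. With the RNA index the counts were 0 for MAM in Mgmt-/-, 0 for its genotype difference and 1 for time in wt. The fitted 6 hr difference of Map1b 1450397_at in Mgmt-/- was then 0.25, an extrapolation, since MAM and vehicle arrays did not overlap on the index. An ordinary linear model gave 1 for MAM in Mgmt-/-, 1 for its genotype difference and 1 for time in wt. Array weights gave 1 for MAM in wt, 5 for the genotype difference in response and 7 for time in wt. No fold threshold gave 7 for MAM in Mgmt-/-. Number set 1 alone gave 7 for MAM in Mgmt-/-, 0 for its genotype difference and 0 for time in wt. Number set 2 alone gave 4 for MAM in wt, 14 for MAM in Mgmt-/-, 11 for time in wt and 9 for time in Mgmt-/-. Leaving out 1 array gave 0 to 1 for MAM in wt (1 without a wt vehicle 48 hr array), 6 to 13 for genotype (6 without a Mgmt-/- vehicle 48 hr array), 3 to 5 for MAM in Mgmt-/-, 1 to 4 for the genotype difference in response (1 without that array, a wt MAM or a Mgmt-/- MAM array of 48 hr), 0 to 3 for time in wt and 0 for time in Mgmt-/-. Of 19 named differences, 16 kept their side of the threshold with cyclic loess, 4 with the RNA index, 1 in number set 1 and 11 in number set 2. The causes were not tested. For most of these alternatives the share over all probe sets was not computed, so nothing about the members is read from their counts. No paired analysis was possible because every animal number belongs to 1 group only.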
